A study of Mus musculus with 2 samples.

Results

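The 8 genes described here encode proteins that carry retinol, turn it into retinoic acid, bind or break down retinoic acid, and sense it: Rbp4, Adh1, Aldh1a1, Aldh1a2, Aldh1a3, Crabp1, Cyp26b1 and Rarb. They were taken by name from the 27998 genes counted, and their unique molecular identifiers (UMIs, each marking 1 captured transcript) were summed over cell classes of 2 muscles. The single-cell libraries came from the quadriceps, a limb muscle, and the diaphragm, the breathing muscle, of C57BL/6J mice, with no treatment or genetic change named in the labels and no age or sex given. In all 10 mice were used, and the mononuclear cells of several muscles were combined before loading, so there was 1 library per muscle, no replicate and no test between muscles. All intervals below are 95% intervals that cover counting error only.

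Retinol reaches tissues on its plasma carrier and is stored as esters inside cells. Alcohol and short-chain dehydrogenases oxidise it reversibly to retinal, and the retinal dehydrogenases of the Aldh1a family then oxidise retinal irreversibly to retinoic acid. Retinoic acid enters the nucleus and binds retinoic acid receptors, which sit on DNA together with retinoid X receptors, while enzymes of the Cyp26 family degrade it. Connective tissue cells are a known source of retinoic acid in many organs. Fibro-adipogenic progenitors (FAPs), the main connective tissue progenitor of muscle, are marked by Pdgfra and by matrix genes such as Dcn.

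All 8 genes are protein-coding, and positions are those of the GRCm38 build with GENCODE M21. Rbp4 (ENSMUSG00000024990) lies at chr19:38116629-38125281 on the minus strand. Adh1 (ENSMUSG00000074207) lies at chr3:138260991-138290698 on the plus strand. Aldh1a1 (ENSMUSG00000053279) lies at chr19:20492715-20643465 on the plus strand, Aldh1a2 (ENSMUSG00000013584) at chr9:71215789-71296243 on the plus strand, and Aldh1a3 (ENSMUSG00000015134) at chr7:66390890-66427517 on the minus strand. Crabp1 (ENSMUSG00000032291) lies at chr9:54764748-54773110 on the plus strand, Cyp26b1 (ENSMUSG00000063415) at chr6:84571414-84593908 on the minus strand, and Rarb (ENSMUSG00000017491) at chr14:16430839-16819156 on the minus strand. Counted genes overlap exons of 2 of the 8 on the opposite strand. Gm16559, opposite Adh1, had 1 UMI in quadriceps FAPs and 0 in diaphragm FAPs. Top2b, opposite Rarb, stood at 94.1 and 62.1 CPM in quadriceps and diaphragm FAPs, where CPM is a gene's UMIs per 1000000 UMIs of the cells summed. Its muscle difference ran opposite to that of Rarb below. The 3′ assay counts transcript ends, so CPM does not grow with transcript length.

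Retinoic acid receptors bind a pair of short repeats read in the same direction, and Rarb itself is a classical target gene. The promoter sequences of RefSeq (GRCm38.p6, 250 bases before to 50 after each start) covered 7 of the 8 genes. The repeat unit searched was AGGTCA, also with G as the first letter or T as the third. Both strands were searched for 2 units in the same direction, 5 bases apart. This pattern was in 32 of 32851 promoters (0.0974%). Among the 7 genes covered it was present in Rarb alone, and among 45 other pathway genes covered in Cyp26a1 alone, the close relative of Cyp26b1. Both stretches are shown because they carry the repeat of the receptor's own target genes; capitals mark the repeat, and the Cyp26a1 copy reads on the opposite strand.
Rarb, chr14:16575483-16575559, minus strand: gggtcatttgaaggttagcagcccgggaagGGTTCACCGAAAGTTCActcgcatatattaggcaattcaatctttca
Cyp26a1, chr19:37697746-37697822, plus strand: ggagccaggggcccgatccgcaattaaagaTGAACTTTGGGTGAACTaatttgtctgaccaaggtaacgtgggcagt
The Rarb repeat lies 53 to 37 bases before the start site and the Cyp26a1 repeat 32 to 16 bases before it. With 1 or 2 bases between the copies, the search found 73 and 88 promoters (0.222% and 0.268%) and none of the 7 genes. A match is a letter match only, and its absence elsewhere says nothing of more distant sites.

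The libraries held 5159 quadriceps and 2499 diaphragm barcodes with medians of 9719 and 11853 UMIs, and 5 barcodes occurred in both. FAPs were the barcodes with at least 1 Pdgfra and 50 Dcn UMIs, 2339 in quadriceps (26559263 UMIs, median 10782) and 2010 in diaphragm (25965824 UMIs, median 12575.5). FAP markers summed to 38360 and 35570 CPM in them. Other lists moved with the muscle: 8 smooth muscle markers summed to 1761 and 37.1 CPM, and 8 tenocyte (tendon cell) markers to 574.3 and 1694 CPM. Thbs4 was the highest tenocyte marker in both muscles, at 254.4 and 1537 CPM. The 8 mesothelial markers summed to 7.27 CPM, mostly Krt19 (6.66 CPM), in quadriceps and to 111.3 CPM, mostly Wt1 (92.85 CPM), in diaphragm. The immediate early genes Fos, Junb, Egr1 and Cyr61 summed to 1159 and 7983 CPM. No defining marker of smooth muscle or tenocytes was at 0 in either muscle, and 5 of the 8 mesothelial markers (Wt1, Lrrn4, Muc16, Upk1b and Krt8) were at 0 in quadriceps FAPs. Just inside the gate, at 50 to 59 Dcn UMIs, 27 quadriceps and 10 diaphragm barcodes with Pdgfra held 290.2 and 293.7 CPM of the 8 genes together. Just outside it, at 40 to 49 Dcn UMIs, 33 and 9 barcodes held 319.0 and 110.9 CPM. The part of the marker lists in the results was not tested unless a value is given beside the result. Clustering of all cells that left out the 8 genes and 64 other pathway genes gave FAP-like cells, smooth muscle-like cells and smaller classes, named from markers.

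Most UMIs of 7 of the 8 genes lay in FAP-like cells in quadriceps, and most Rarb UMIs did not. In quadriceps, FAP-like cells held 51.7% of all UMIs but 96.7% of Aldh1a2 UMIs, 95.7% of Aldh1a3, 95.3% of Adh1, 89.9% of Aldh1a1, 89.4% of Cyp26b1, 85.1% of Rbp4 and 81.3% of Crabp1. Of Rarb UMIs they held 33.4%, and smooth muscle-like cells held 58.4%. In diaphragm, where FAP-like cells held 94.0% of all UMIs, they held 94.9% of Rarb UMIs and all UMIs of Aldh1a3, Crabp1 and Cyp26b1, with the other 4 genes between these. Because the classes have different sizes and depths, the levels below are given in CPM of a class. The share of mitochondrial UMIs also differed between classes: in quadriceps its median was 4.004% in FAP-like, 7.44% in tenocyte-like, 7.30% in satellite-like and 17.2% in smooth muscle-like cells, of which 73.8%, 24.6%, 10.9% and 0.771% had at most 5%. When cells over 5% were removed before clustering, all 8 genes were highest in FAP-like cells in quadriceps. That clustering called 1960 of 2171 quadriceps cells FAP-like, against 1866 under the same limit in the classes as first named. Since 30 tenocyte-like and 10 smooth muscle-like cells were within the limit, it cannot decide on the leads of these classes given below. The part of the mitochondrial share in these leads was not tested beyond the values given beside them.

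Adh1, Aldh1a2 and Aldh1a3 were highest in FAP-like cells among the 10 quadriceps classes of at least 20 cells. Across all genes, 8.66% were highest in that class in quadriceps. Adh1, an alcohol dehydrogenase that oxidises retinol, stood at 79.6 CPM in FAP-like cells against 19.8 CPM in endothelial-like cells, which rested on 4 UMIs, and 3.89 CPM in smooth muscle-like cells. Aldh1a2, the main retinoic acid-making enzyme of the embryo's mesoderm, stood at 26.8 CPM against at most 4.94 CPM elsewhere. Aldh1a3, a retinal dehydrogenase best known from eye and nasal tissue, stood at 68.7 CPM against 11.0 CPM in tenocyte-like cells. The FAP-like to smooth muscle-like ratio was 20.5 (16.2 to 26.2) for Adh1, 33.1 (19.9 to 59.4) for Aldh1a2 and 24.4 (18.6 to 32.9) for Aldh1a3.

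The 122 tenocyte-like cells of quadriceps had the highest level of 4 genes, beside 8.69% of all genes. Rbp4, the plasma retinol carrier, stood at 160.2 CPM there and 40.9 CPM in FAP-like cells, a ratio of 3.91 (3.29 to 4.63). Its 160 UMIs lay in 19 of the 122 cells, so a minority of cells carried them. Crabp1, a cytoplasmic retinoic acid binder, stood at 17.0 and 2.82 CPM, a ratio of 6.03 (3.34 to 10.3), with 17 UMIs in 10 tenocyte-like cells. Aldh1a1 stood at 115.2 and 88.2 CPM, a ratio of 1.31 (1.07 to 1.58). Cyp26b1 stood at 24.0 and 22.5 CPM, and its ratio of 1.07 (0.680 to 1.61) did not separate the classes. The relative Cyp26a1 had 42 UMIs in 7 tenocyte-like cells (42.1 CPM) and 2 UMIs in all FAP-like cells of quadriceps, a ratio of 551.3 (143.4 to 4701). Adh1, Aldh1a2 and Aldh1a3 were lower in tenocyte-like than in FAP-like cells, by ratios of 19.9 (7.75 to 73.0), 13.4 (3.69 to 110.8) and 6.24 (3.48 to 12.5). Among the 30 tenocyte-like cells with at most 5% mitochondrial UMIs, an alternative added after the data were seen, Rbp4 had 140 UMIs, Aldh1a1 48 and Cyp26b1 22, and their ratios to FAP-like cells of the same limit were 11.0 (9.10 to 13.1), 1.68 (1.23 to 2.24) and 2.97 (1.84 to 4.55). Crabp1 had 0 UMIs in these 30 cells, so all 17 of its tenocyte-like UMIs lay in cells over the limit.

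Rarb, the retinoic acid receptor beta, had a different distribution. Its level in quadriceps was 17.0 CPM (15.2 to 19.0) in smooth muscle-like cells, with 315 UMIs in 259 of 1297 cells, and 9.26% of all genes were highest in this class. It was 15.02 CPM (8.41 to 24.8) in tenocyte-like, 12.3 CPM (6.53 to 20.96) in satellite-like and 6.87 CPM in FAP-like cells. The smooth muscle-like to FAP-like ratio was 2.48 (2.06 to 3.00), while the first 3 classes in this order had overlapping intervals. Of the 1297 smooth muscle-like cells 10 had at most 5% mitochondrial UMIs, and the ratio in these was 4.31 (0.108 to 24.4), an interval that included 1. In diaphragm, with 46 smooth muscle-like cells and 7 Rarb UMIs, the levels were 14.1 and 9.14 CPM and the ratio of 1.54 (0.612 to 3.22) included 1. In the quadriceps smooth muscle-like cells, 2 genes known to respond to retinoic acid were also higher than in FAP-like cells, Dhrs3, which reduces retinal back to retinol, at 187.3 against 61.5 CPM, and Tgm2, a transglutaminase, at 397.6 against 35.4 CPM.

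Aldh1a1 was the one retinal dehydrogenase with a high level in satellite-like cells, the muscle stem cells. It stood at 67.9 CPM (53.1 to 85.5) there, with 72 UMIs in 52 of 202 quadriceps cells, and the FAP-like to satellite-like ratio was 1.30 (1.03 to 1.67). Aldh1a2 and Aldh1a3 stood at 0.943 and 3.77 CPM in the same cells. Of the 202 cells, 22 had at most 5% mitochondrial UMIs, and these held 3 Aldh1a1 UMIs, all in 1 cell. Their level of 26.1 CPM (5.37 to 76.15) stood against 84.8 CPM in FAP-like cells of the same limit, so the level above rested mostly on cells over it. The 20 diaphragm satellite-like cells held 1 Aldh1a1 UMI. Cyp26b1 stood at 18.2 CPM in macrophage or monocyte-like cells of quadriceps, but all 12 UMIs lay in 1 of 83 cells. Crabp1 had 0 UMIs in smooth muscle-like cells, which allows up to 0.162 CPM.

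In diaphragm, FAP-like cells were highest for 6 of the 7 genes with enough UMIs among 6 classes of at least 20 cells, while Rarb was highest in smooth muscle-like cells. The background there was 27.8% of all genes. Clustering each library on its own left 627 diaphragm barcodes without a name and lowered the count to 3. Taking in classes of at least 10 cells lowered it to 4. Aldh1a2 had 11 UMIs in 3 of 14 diaphragm macrophage or monocyte-like cells, or 70.3 CPM (35.1 to 125.7), against 38.45 CPM in FAP-like cells. Aldh1a2 was also present in a few diaphragm barcodes with a mesothelial marker, although no class was named mesothelial. The 9 diaphragm barcodes with at least 5 UMIs of the mesothelial marker Msln held 57 Aldh1a1 and 26 Aldh1a2 UMIs (379.9 and 173.3 CPM) and 0 of Adh1, Aldh1a3, Crabp1, Cyp26b1 and Rarb. Of these 9 barcodes, 2 passed the FAP gate.

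**Figure D1:**
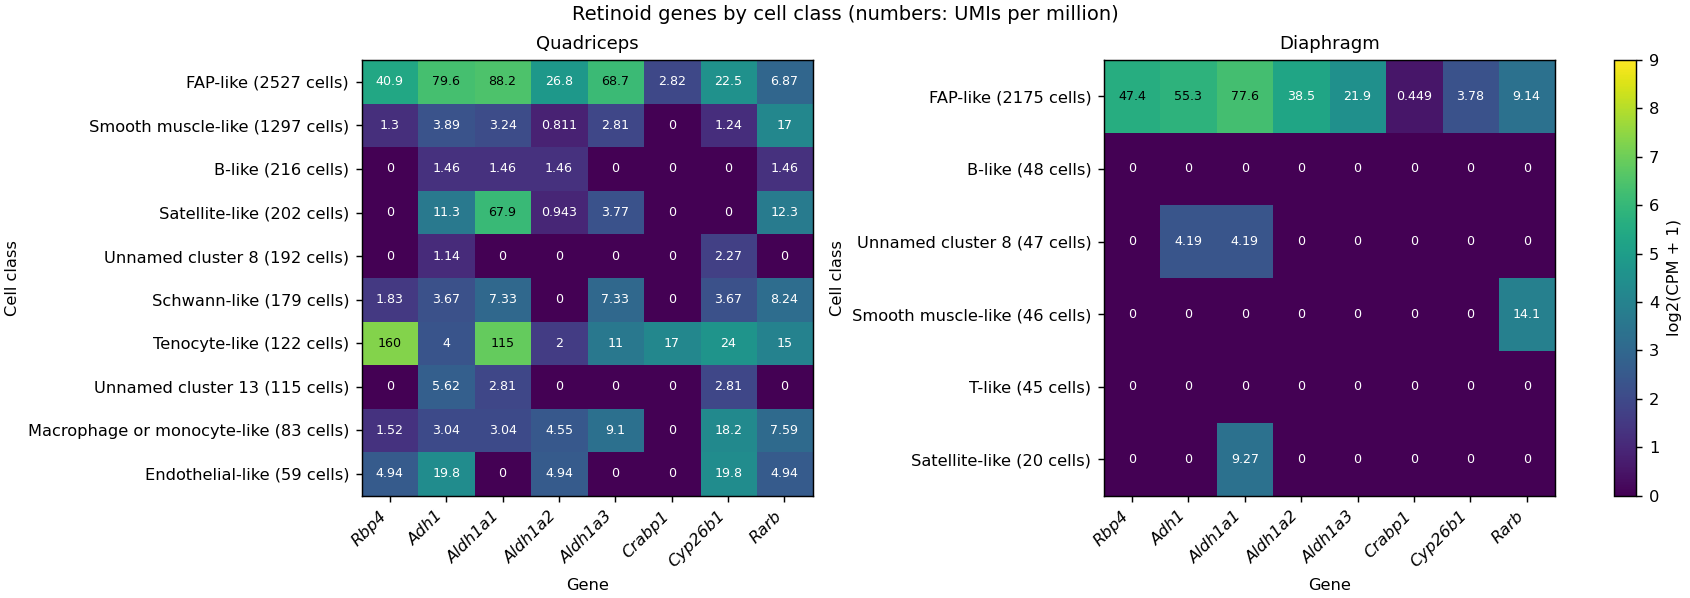
Levels of the 8 genes (columns) in each cell class of at least 20 cells (rows, with cell counts) of quadriceps and diaphragm. Numbers are CPM and color is log2(CPM + 1); the quadriceps tenocyte-like row has the highest Rbp4 (160.2 CPM), and Rarb reaches 17.0 CPM in smooth muscle-like cells.

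Lymphoid cells, which should lack these genes, gave the background. After each cell was thinned to 1000 UMIs, 0 or 1 of 426 quadriceps cells with B, NK or T cell markers (median 3534 UMIs) held a UMI of any one of the 8 genes, and a count of 0 allows a share of up to 0.704%. In diaphragm 0 of 140 (median 5054.5 UMIs) did, which allows up to 2.14%. The thinned shares of FAPs were 9.24% and 8.71% (quadriceps and diaphragm) for Aldh1a1, 7.91% and 5.77% for Adh1, 4.66% and 1.79% for Aldh1a3, 4.15% and 4.48% for Rbp4, 2.57% and 3.23% for Aldh1a2, and 1.75% and 0.597% for Cyp26b1. Those of Rarb (0.684% and 0.746%) and Crabp1 (0.342% and 0, which allows 0.149%) were within the lymphoid limits, as were Aldh1a3 and Cyp26b1 in diaphragm, so these thinned shares alone do not separate them from background. On the CPM scale, which uses all UMIs, a lymphoid count of 0 allows 1.81 CPM in quadriceps and 3.93 CPM in diaphragm, so the diaphragm FAP levels of Cyp26b1 (3.58 CPM) and Crabp1 (0.462 CPM) could not be told from it, while Aldh1a3 in diaphragm (21.3 CPM), Crabp1 in quadriceps (2.79 CPM) and Rarb in both (6.97 and 9.24 CPM) lay above it.

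Between muscles, 3 of the 8 genes differed by at least 2-fold in FAPs, all of them higher in quadriceps: Aldh1a3, Cyp26b1 and Crabp1. All 8 passed the minimum of 20 UMIs summed over both muscles, but Crabp1, with 74 and 12 UMIs, passed only through quadriceps, where it was high. Of 13685 genes with as many UMIs, 4.72% were at least 2-fold higher in quadriceps and 3.01% in diaphragm, where none of the 8 was. With at least 20 UMIs asked of each muscle, 7 of the 8 remained, of which 2 were past 2-fold, beside 3.16% of genes higher in quadriceps and 2.65% in diaphragm. The median log2 fold of diaphragm over quadriceps, with 1 CPM added, was -0.10 over all genes and -0.32 over the 8, given as a description. The summed level of the 8 genes was 324.6 CPM in quadriceps and 255.9 CPM in diaphragm.

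The retinol carrier and the retinol-oxidising enzyme differed by less. Rbp4 had 1086 UMIs in 446 quadriceps FAPs, 40.9 CPM (38.5 to 43.4), and 1241 UMIs in 581 diaphragm FAPs, 47.8 CPM (45.2 to 50.5). The diaphragm to quadriceps ratio of Rbp4 was 1.17 (1.08 to 1.27). Adh1 had 2096 UMIs in 981 FAPs, 78.9 CPM (75.6 to 82.4), in quadriceps and 1456 UMIs in 737 FAPs, 56.1 CPM (53.2 to 59.03), in diaphragm. Its ratio of 0.711 (0.664 to 0.760) put it higher in quadriceps. Both intervals excluded 1, but with 1 pool of mice per muscle they do not cover the spread between animals.

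The 3 retinal dehydrogenases together stood at 172.7 CPM in quadriceps FAPs and 138.7 CPM in diaphragm FAPs, with different shares of the family. Aldh1a1, the most abundant in both, had 2301 UMIs in 1166 quadriceps FAPs, 86.6 CPM (83.1 to 90.3), and 2046 UMIs in 1116 diaphragm FAPs, 78.8 CPM (75.4 to 82.3). Its ratio was 0.910 (0.857 to 0.966), and it made up 50.2% (48.7 to 51.6) of the family's UMIs in quadriceps and 56.8% (55.2 to 58.4) in diaphragm. The near-identical rodent gene Aldh1a7 had 0 UMIs in FAPs of both muscles, so reads that fit both copies, if any, cannot be placed.

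Aldh1a2 went the other way from Aldh1a3. Aldh1a2 had 697 UMIs in 281 quadriceps FAPs, 26.2 CPM (24.3 to 28.3), and 1003 UMIs in 405 diaphragm FAPs, 38.6 CPM (36.3 to 41.1), a ratio of 1.47 (1.34 to 1.62). Aldh1a3 had 1589 UMIs in 412 quadriceps FAPs, 59.8 CPM (56.9 to 62.8), and 553 UMIs in 226 diaphragm FAPs, 21.3 CPM (19.6 to 23.2). Its level was 2.81-fold (2.55 to 3.10) higher in quadriceps. The share of the family's UMIs was 34.6% (33.3 to 36.0) for Aldh1a3 and 15.2% (14.2 to 16.3) for Aldh1a2 in quadriceps, and 15.4% (14.2 to 16.6) and 27.8% (26.4 to 29.3) in diaphragm.

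Cyp26b1, which hydroxylates retinoic acid for removal, and Crabp1 differed between muscles by ratios whose intervals overlapped. Cyp26b1 had 594 UMIs in 217 quadriceps FAPs, 22.4 CPM (20.6 to 24.2), and 93 UMIs in 47 diaphragm FAPs, 3.58 CPM (2.89 to 4.39). The quadriceps level was 6.24-fold (5.01 to 7.86) higher. Crabp1 was a gene of few cells, with 74 UMIs in 30 quadriceps FAPs, 2.79 CPM (2.19 to 3.50), and 12 UMIs in 9 diaphragm FAPs, 0.462 CPM (0.239 to 0.807). Its quadriceps level was 6.03-fold (3.25 to 12.2) higher, and on the log2 scale with 1 CPM added the difference was -1.37. Leaving out FAPs over 5% mitochondrial UMIs took Crabp1 to -0.86 and adding 5 CPM in place of 1 to -0.51, both short of 2-fold. Rarb had 185 UMIs in 157 quadriceps FAPs, 6.97 CPM (6.00 to 8.05), and 240 UMIs in 208 diaphragm FAPs, 9.24 CPM (8.11 to 10.5), a ratio of 1.33 (1.09 to 1.62).

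Beside these 3 genes, smooth muscle markers were also higher in quadriceps FAPs, and smooth muscle-like cells themselves held 2.81 CPM of Aldh1a3, 1.24 CPM of Cyp26b1 and 0 UMIs of Crabp1. Tenocyte-like cells held Crabp1 and Cyp26b1. Without the barcodes carrying a UMI of the tenocyte marker Tnmd (230 quadriceps and 408 diaphragm FAPs) the log2 folds were -1.32 for Aldh1a3, -2.70 for Cyp26b1 and -1.43 for Crabp1. The part of the immediate early genes was not tested.

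**Figure D2:**
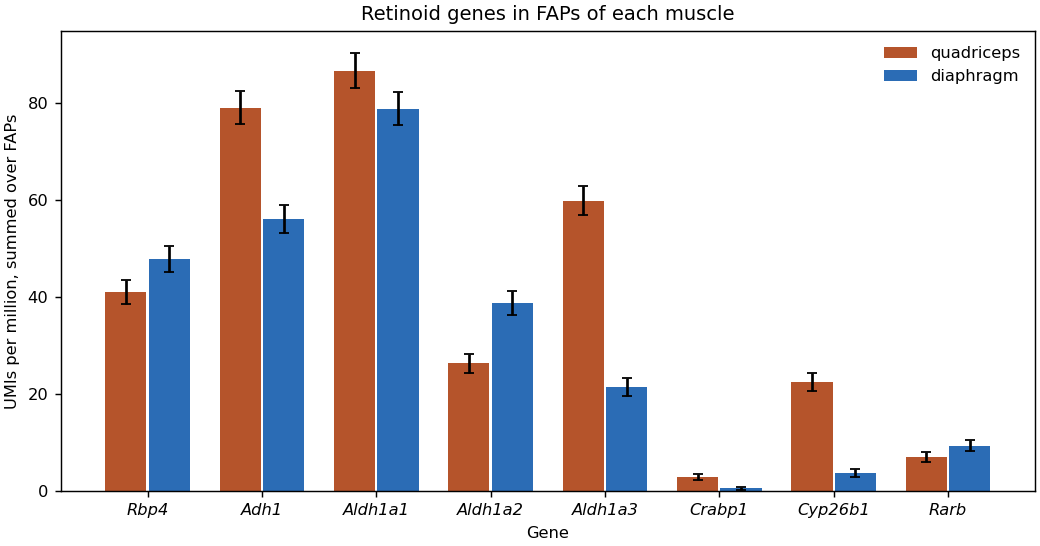
CPM of the 8 genes summed over the 2339 quadriceps (orange) and 2010 diaphragm (blue) FAPs, with bars from 0 and error bars for the exact Poisson 95% interval of the count. Aldh1a3 (59.8 and 21.3 CPM), Cyp26b1 (22.4 and 3.58 CPM) and Crabp1 (2.79 and 0.462 CPM) are past 2-fold, and the other 5 genes are not.

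UMIs of more than 1 Aldh1a gene were seen in a minority of FAPs, where a count of 0 in a cell does not show that the gene was silent. At least 1 Aldh1a gene was seen in all but 39.7% of quadriceps and 31.3% of diaphragm FAPs, exactly 1 in 42.4% and 52.0%, 2 in 16.6% and 15.2%, and all 3 in 1.33% and 1.49%. Aldh1a1 had 1.97 and 1.83 UMIs per positive FAP in quadriceps and diaphragm, and Aldh1a3 had 3.86 and 2.45. The most in 1 cell was 13 and 22 UMIs for Aldh1a1 and 20 and 19 for Aldh1a3. The 5% of FAPs with most UMIs held 61.6% and 77.0% of the Aldh1a3 UMIs, 72.6% and 54.3% of the Aldh1a2 UMIs, and 27.9% and 24.9% of the Aldh1a1 UMIs. Aldh1a2 and Aldh1a3 shared 43 quadriceps and 54 diaphragm cells. Adh1 and Aldh1a1 shared 530 and 422. These counts were not compared with the overlap expected from the number of cells in which each gene was seen.

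Over the 28 pairs of the 8 genes, Pearson's r across FAPs ran from -0.12 to 0.198, over log values of UMIs per 10000 in 2339 and 2010 cells of 1 library each. These are weak values in sparse counts that share a cell's depth, and are given as a description. The highest pair in both muscles was Adh1 with Aldh1a2, at 0.198 and 0.190 in quadriceps and diaphragm and 0.082 and 0.026 after thinning. Of 9743 eligible genes, those whose pattern was most like Aldh1a3, ranked by the lower r of the muscles, were Car8 (0.676 and 0.410), Cmah (0.455 and 0.377), Lurap1l (0.567 and 0.341), Sbsn (0.684 and 0.339) and Sema3c (0.540 and 0.338). For Aldh1a1 they were Hsd11b1 (0.370 and 0.280), Crispld2 (0.317 and 0.262), Cxcl14 (0.297 and 0.257), Fam198b (0.286 and 0.229) and Smoc2 (0.226 and 0.315). For Rbp4 they were Gdf10 (0.319 and 0.336), Srpx, Gpc3, Olfml3 and Gpx3. For Adh1 they were Lifr (0.328 and 0.356), AW112010, Ccl11, Cygb and Gsn, and for Aldh1a2 Lifr (0.242 and 0.269), Adh1, Ccl11, Abca8b and Ret. For Rarb no gene passed 0.102 in either muscle among its 5 most alike, which were Ifi27l2a, Sema3c, Heg1, Axl and Col14a1.

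Clustering the FAPs alone, again without the retinoid genes, gave 10 subclusters, called here by their 3 leading genes. The 8 genes were not all highest in the same subcluster, but in quadriceps Adh1, Aldh1a1, Aldh1a2 and Crabp1 shared one. The side was called FBN1+ or LUM+, the FAP subtypes the study describes, where at least 3 of the genes Fbn1, Mfap5, Pcolce2 and Loxl1, or of Lum, Apod, Smoc2, Col15a1 and Cxcl14, were higher than in all other FAPs. In diaphragm this split was weaker, with Loxl1 at a log2 fold of -0.13 and Cxcl14 at -1.63, against 0.63 and -4.47 in quadriceps.

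Aldh1a3 was higher on the FBN1+ side as a whole in both muscles, but unevenly over its subclusters. In quadriceps it stood at 136.3 CPM in 885 FBN1+ and 6.23 CPM in 836 LUM+ FAPs, a ratio of 21.9 (16.7 to 29.3). In diaphragm it stood at 22.3 CPM in 659 FBN1+ and 5.24 CPM in 1084 LUM+ FAPs, a ratio of 4.24 (3.21 to 5.66). Of the 659, 509 were of the Thbs1/Socs3/Hk2 subcluster, where Aldh1a3 stood at 12.6 CPM. The highest LUM+ level in diaphragm was 10.4 CPM, in the Angpt4/C4b/C2 subcluster. Of 11816 genes tested, 1.46% were at least 2-fold higher on the FBN1+ side in both muscles, and 2.34% on the LUM+ side. Of the 7 retinoid genes with enough UMIs in both muscles, Aldh1a3 was in the first set and Cyp26b1 in the second. Aldh1a3 was past 2-fold in both muscles under all 7 alternative settings of this comparison and Cyp26b1 under 4 of them.

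The quadriceps Aldh1a3 transcripts came largely from 1 subcluster. The Dmkn/Bmp3/Akr1c18 subcluster held 219 quadriceps FAPs (9.36%) and 2 diaphragm FAPs, and 67.8% of all quadriceps Aldh1a3 UMIs. Its level was 386.6 CPM (363.9 to 410.4), with a UMI in 87.7% of the cells. Aldh1a3 was next at 72.0 CPM in quadriceps and 50.4 CPM in diaphragm in the Fam167a/Gap43/Duox1 subcluster, and at 88.4 CPM in the 221 diaphragm FAPs of the Ptx3/Gm12840/Sult1e1 subcluster. It lay between 3.72 and 11.4 CPM in the other quadriceps subclusters of at least 20 cells except Tagln/Myh11/Sorbs2 (34.7 CPM), whose leading genes are smooth muscle genes. Since the Dmkn/Bmp3/Akr1c18 subcluster came almost wholly from 1 library, a cell type of quadriceps and a feature of that library cannot be told apart.

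Without the Dmkn/Bmp3/Akr1c18 subcluster Aldh1a3 stood at 21.5 CPM in 2120 quadriceps and 21.3 CPM in 2008 diaphragm FAPs (log2 fold -0.01). This removal takes the cells highest in Aldh1a3 from quadriceps alone, so a smaller difference was fixed by the choice. With the Ptx3/Gm12840/Sult1e1 subcluster, which held 50.6% of the diaphragm Aldh1a3 UMIs, left out as well, Aldh1a3 stood at 21.1 and 12.0 CPM in 2102 and 1787 FAPs, a log2 fold of -0.76 that was short of 2-fold. Cyp26b1 stood at 24.9 and 3.58 CPM after the first removal and at 24.1 and 3.03 CPM after both (log2 folds -2.50 and -2.64). Both alternatives were added after the data were seen. In the Dmkn/Bmp3/Akr1c18 subcluster Aldh1a1 stood at 115.1 CPM, Rarb at 11.8 CPM and Adh1 at 24.0 CPM, while Aldh1a2 (1.79 CPM), Cyp26b1 (0.717 CPM) and Rbp4 (5.02 CPM) were at their lowest among the 9 quadriceps subclusters of at least 20 cells.

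Cyp26b1 was lower in diaphragm within each of the 6 subclusters that held at least 20 cells of both muscles. It had 192 UMIs (52.1 CPM) in quadriceps and 28 (7.27 CPM) in diaphragm in the Angpt4/C4b/C2 subcluster, a ratio of 0.140 (0.0904 to 0.208). In the Thbs1/Socs3/Hk2 subcluster it had 88 UMIs (27.8 CPM) and 3 UMIs (0.445 CPM), a ratio of 0.0160 (0.00324 to 0.0484). The Ptn/Sh2d6/Mettl24 subcluster had 132 UMIs in 545 quadriceps FAPs and 0 in 46 diaphragm FAPs, and Lamc3/Lrrtm3/Cxcl14 had 37 and 0. The highest level in either muscle was in the small Spp1/Tenm2/Col9a2 subcluster, at 118.8 CPM in 53 quadriceps FAPs and 110.0 CPM (11 UMIs) in 10 diaphragm FAPs. On the side scale, Cyp26b1 stood at 11.8 CPM in FBN1+ and 35.0 CPM in LUM+ FAPs of quadriceps and at 0.551 (5 UMIs) and 4.86 CPM in diaphragm, ratios of 0.338 (0.273 to 0.418) and 0.113 (0.0356 to 0.278). The diaphragm value turned without Tnmd-positive barcodes, to a log2 fold of 0.70, and was -0.10 without Scrublet calls and -0.13 when expression was centred over both libraries.

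**Figure D3:**
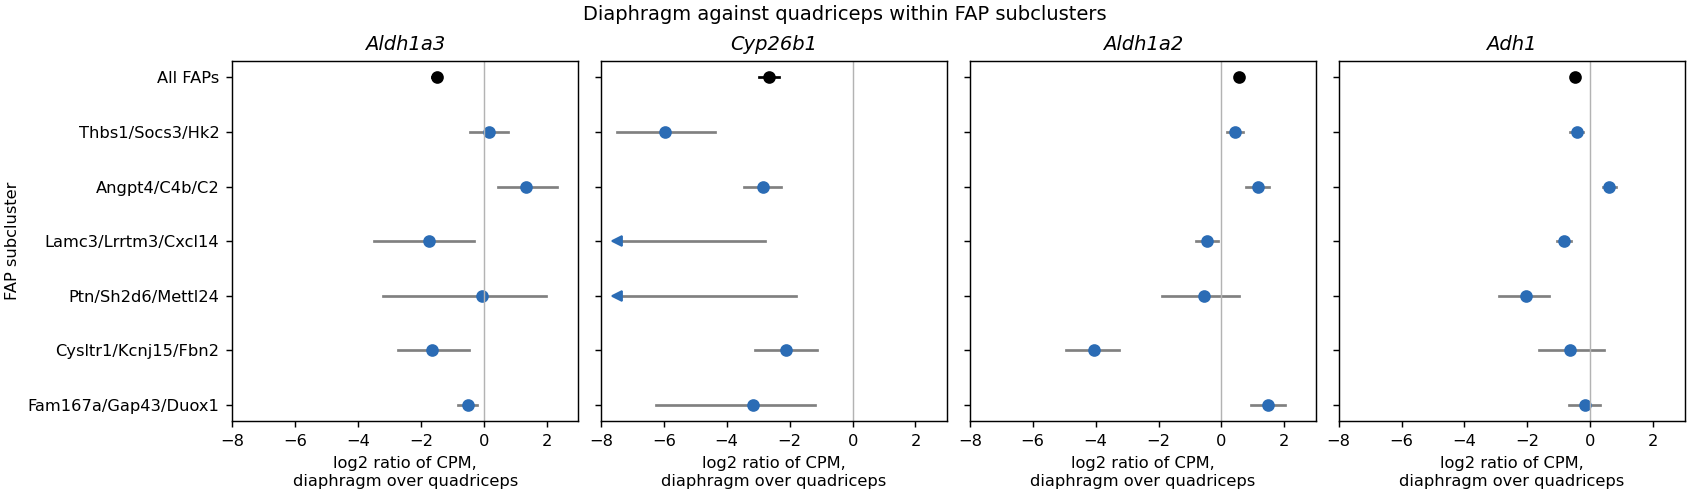
Ratio of diaphragm to quadriceps levels (log2 axis, 0 is equal) of 4 genes in all FAPs (black) and in each FAP subcluster with at least 20 cells of both muscles (blue), with 95% counting intervals and arrowheads where diaphragm had 0 UMIs. Cyp26b1 lies left of 0 throughout, while Aldh1a3, Aldh1a2 and Adh1 lie on both sides.

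Rbp4 was highest in the Angpt4/C4b/C2 subcluster of both muscles, at 152.6 CPM in quadriceps and 118.1 CPM in diaphragm. These cells were 14.7% and 17.4% of FAPs and held 51.8% and 36.7% of the Rbp4 UMIs. Aldh1a1 was highest in the Lamc3/Lrrtm3/Cxcl14 subcluster of both muscles, at 228.4 and 161.7 CPM. In quadriceps Adh1 (163.8 CPM), Aldh1a2 (59.2 CPM) and Crabp1 (14.8 CPM, 52 of 74 UMIs) were highest there as well. In diaphragm Adh1 was highest in the Angpt4/C4b/C2 subcluster (124.6 CPM) and Aldh1a2 in the Thbs1/Socs3/Hk2 subcluster (75.8 CPM), which held 51.0% of the Aldh1a2 UMIs in 25.3% of the FAPs.

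Among subclusters of at least 20 cells, the Cysltr1/Kcnj15/Fbn2 subcluster had the lowest Adh1 level in both muscles and the lowest Aldh1a2 level in diaphragm. It held 500 diaphragm FAPs (24.9%) and 71 quadriceps FAPs, and its Thbs4 level of 4154 CPM was the highest of the 10 subclusters. In diaphragm it had 7.20 CPM of Adh1, 2.70 CPM of Aldh1a2 and 3.60 CPM of Aldh1a3, but 82.7 CPM of Aldh1a1, 36.9 CPM of Rbp4 and 12.5 CPM of Rarb. Its quadriceps cells had 11.3 CPM of Adh1 and 45.2 CPM of Aldh1a2, so Aldh1a2 differed between muscles within this subcluster by a ratio of 0.0597 (0.0325 to 0.106). In the Fam167a/Gap43/Duox1 subcluster the Aldh1a2 ratio was 2.76 (1.91 to 4.03), so the muscle difference of Aldh1a2 had no single direction over subclusters.

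Rarb ranged from 2.27 to 11.8 CPM over quadriceps subclusters and from 2.86 to 15.9 CPM over diaphragm subclusters. It was lowest in the Lamc3/Lrrtm3/Cxcl14 subcluster in quadriceps (8 UMIs) and in the Angpt4/C4b/C2 subcluster in diaphragm (11 UMIs). On the side scale its ratio was 2.14 (1.46 to 3.20) in quadriceps, higher in FBN1+ FAPs, and 1.07 (0.795 to 1.44) in diaphragm. Rbp4 and Aldh1a1 were lower on the FBN1+ side in both muscles, with ratios of 0.164 (0.137 to 0.195) and 0.536 (0.490 to 0.586) in quadriceps and 0.622 (0.544 to 0.710) and 0.694 (0.629 to 0.766) in diaphragm. Of these 4 ratios that of Rbp4 in quadriceps was past 2-fold. The diaphragm direction of Rbp4 turned at a clustering resolution of 0.3 (log2 fold 0.34) and was 0.02 with centring over both libraries.

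**Figure D4:**
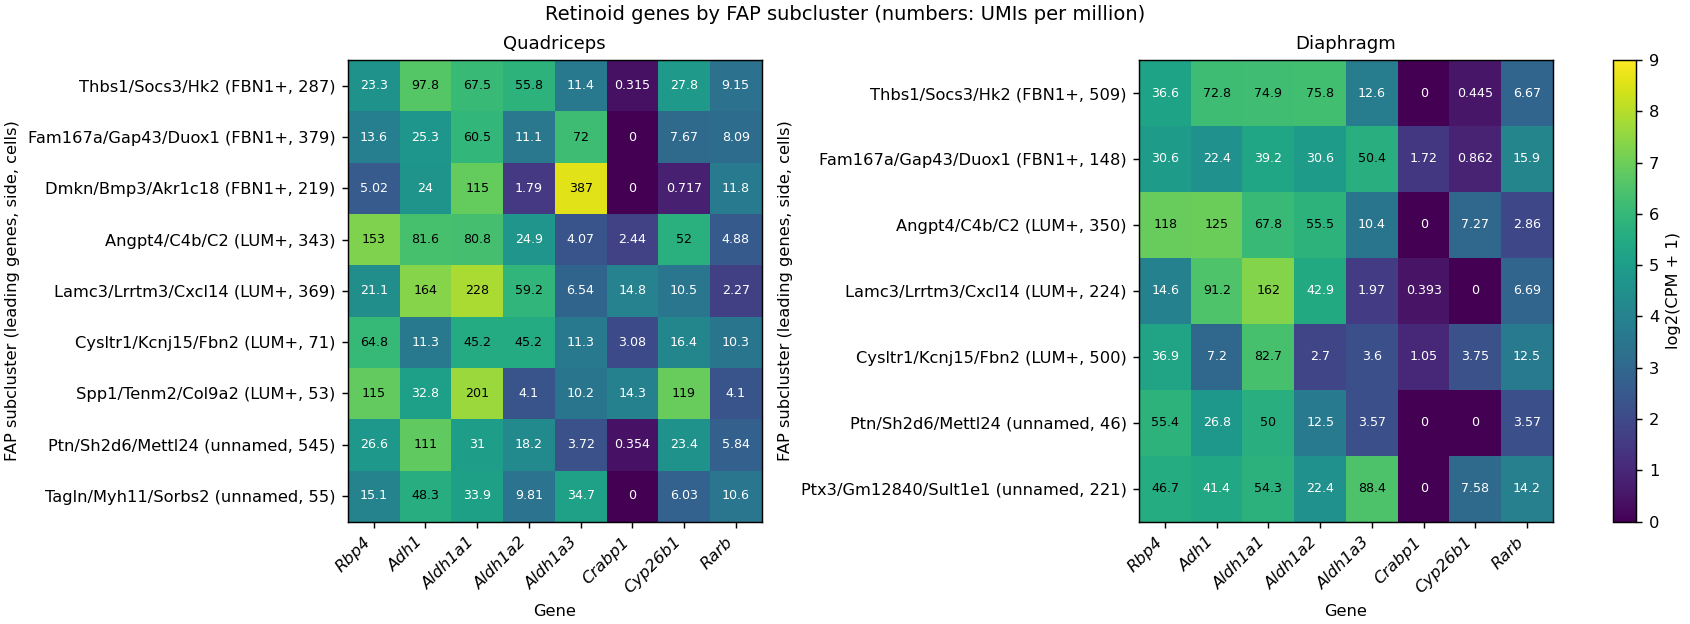
Levels of the 8 genes (columns) in FAP subclusters of at least 20 cells (rows, with the side and cell count) of each muscle, in CPM, with color for log2(CPM + 1). Aldh1a3 reaches 386.6 CPM in the quadriceps Dmkn/Bmp3/Akr1c18 row, Rbp4 peaks in the Angpt4/C4b/C2 row of both muscles, and the diaphragm Cyp26b1 column stays at or below 7.58 CPM.

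Of the 64 other retinoid pathway genes, 46 passed the minimum of 20 UMIs in FAPs, 6 of them at least 2-fold higher in diaphragm, 5 in quadriceps and 35 in neither, beside backgrounds of 3.01% and 4.72%. Several passed only through the muscle where they were high: with at least 20 UMIs asked of each muscle, 37 remained, 5 of them higher in diaphragm and 1 in quadriceps, beside 2.65% and 3.16%. Their median log2 fold was -0.02. Fabp5, a fatty acid binder that also carries retinoic acid, stood at 6.29 CPM in quadriceps and 25.0 CPM in diaphragm FAPs, a ratio of 3.98 (3.35 to 4.74). The esterase gene Ces1d stood at 49.6 and 107.6 CPM, and the retinoic acid-responsive homeobox genes Meis1 and Meis2 at 20.8 and 46.8 CPM and at 40.4 and 117.0 CPM. Lrp2, an endocytic receptor for the retinol carrier, had 0 and 40 UMIs, at least 13.6-fold higher in diaphragm against a floor of 3 UMIs, but 34 of the 40 lay in 1 cell.

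Higher in quadriceps were Adh7, a retinol-oxidising alcohol dehydrogenase (19.4 and 0.616 CPM, with 514 and 16 UMIs), Crabp2, a carrier of retinoic acid to its receptors (4.44 and 0.385 CPM), Rxrg, a retinoid X receptor (3.43 and 0.347 CPM), Bco2, a carotenoid-cleaving enzyme (2.45 and 0.193 CPM), and Tgm2 (49.1 and 23.0 CPM). Of these 5, Tgm2 alone had at least 20 UMIs in diaphragm FAPs. Tgm2 and Rxrg were also higher in smooth muscle-like than in FAP-like cells of quadriceps, Rxrg at 8.49 against 2.90 CPM, and smooth muscle markers were higher in quadriceps FAPs. When the FAP-like clusters were used in place of the gate, 9 of the other genes were past 2-fold in place of 11.

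By role, of 14 measured retinol and retinal dehydrogenases and reductases besides Adh1, Adh7 was past 2-fold and 13 were not, among them Dhrs7 (133.9 and 132.2 CPM), Adh5 (72.4 and 60.2 CPM), Akr1b3 (72.0 and 74.9 CPM), Dhrs3 (66.5 and 91.5 CPM) and Rdh10, the main embryonic retinol dehydrogenase (12.7 and 16.4 CPM). Of 6 nuclear receptors besides Rarb, Rxrg was past 2-fold and 5 were not, with Rarg at 44.4 and 38.2 CPM, Rara at 22.8 and 21.8 CPM and Rxra at 22.6 and 21.3 CPM. None of 6 coregulators was, including Ncor1 (181.7 and 146.0 CPM), Nrip1 (167.4 and 142.7 CPM) and Ncoa1 (50.0 and 44.3 CPM). Of 10 measured genes known to respond to retinoic acid, 3 were higher in diaphragm, Meis1 and Meis2 among them, 2 in quadriceps (Crabp2 and Tgm2) and 5 in neither, among them Rarres2 (1009 and 926.6 CPM). Of the uptake genes, the lipoprotein lipase gene Lpl (788.2 and 1119 CPM) and the receptor gene Lrp1 (765.3 and 1016 CPM) were short of 2-fold, and Stra6, the cell surface retinol receptor, was near the floor at 23 and 28 UMIs. The esterifying enzyme gene Lrat had 1 and 27 UMIs, a ratio of 27.6 (4.55 to 1131). Lrat passed the minimum only through diaphragm, and its log2 fold of 0.98 with 1 CPM added was short of 2-fold.

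**Figure D5:**
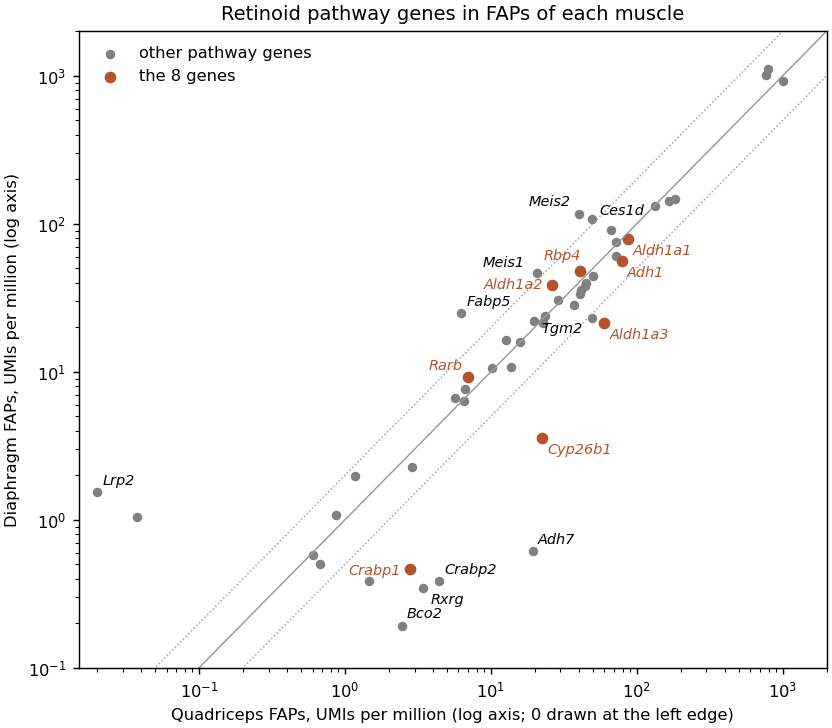
Levels of the 8 genes (orange) and of other pathway genes with at least 20 UMIs (gray) in FAPs, in CPM of quadriceps (x, log axis) and diaphragm (y, log axis), with a solid line at equal levels, dotted lines at 2-fold, and Lrp2 (0 quadriceps UMIs) at the left edge. Named gray points are past 2-fold with 1 CPM added, Fabp5 (6.29 and 25.0 CPM) and Adh7 (19.4 and 0.616 CPM) among them.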

How the data were processed

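Cells of quadriceps and diaphragm (10 mice in all, combined per muscle) were sorted on scatter as viable and sequenced with the 10x Chromium 3′ assay. The submitters' processing notes name Cell Ranger 3.0.0, Seurat and mm10. The deposited values are raw UMI counts per gene and barcode; Cell Ranger counts reads on a gene's own strand. Counts were summed and divided by the class's total (CPM, with 1 CPM added for log2 folds, and a minimum of 20 UMIs). Poisson and Clopper-Pearson intervals were exact. Cells with at least 1000 UMIs and within 3 scaled median absolute deviations above the median were clustered (Leiden, leidenalg 0.10.2, resolution 0.5, scipy 1.17.1) and named from marker lists. No mitochondrial limit was set, since at most 5% left 3833 of 7658 barcodes. Scrublet (scanpy 1.11.5) marked 2.13% of quadriceps and 0.12% of diaphragm barcodes, which stayed in. Folds were tested on simulated data. Named genes were the 8, pathway genes past 2-fold or at 50 CPM or more, markers, and the 5 most alike genes (UMI in at least 5% of FAPs) of members with 100 UMIs per muscle. The members and lists were chosen with earlier results of these data known. Values of 2 listed pathway genes are not reported here and are left out of the plot of pathway genes; the counts include them.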

Additional observations from a re-analysis of the deposited data

Results flagged for a closer look

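The contrast between FBN1+ and LUM+ FAPs had opposite signs in the muscles for 2 genes, a difference that was not tested. For Adh1 the log2 fold of FBN1+ over LUM+ was -1.15 in quadriceps and 0.05 in diaphragm, where the ratio of 1.04 (0.926 to 1.16) included 1. For Aldh1a2 it was -0.83 in quadriceps, with 22.0 CPM in FBN1+ and 39.9 CPM in LUM+ FAPs, and 1.27 in diaphragm, with 64.1 and 26.1 CPM. The subclusters behind the sides differed between muscles: of the diaphragm LUM+ FAPs, 500 of 1084 were of the Cysltr1/Kcnj15/Fbn2 subcluster, in which Adh1 stood at 7.20 CPM and Aldh1a2 at 2.70 CPM, against 71 of 836 in quadriceps. The diaphragm value of Aldh1a2 changed sign in 3 of 7 alternatives, and that of Adh1 ran from -1.76 to 2.16 over them. Without Tnmd-positive barcodes both genes were lower on the FBN1+ side in both muscles, Adh1 at -2.49 and -1.76 and Aldh1a2 at -2.67 and -0.83.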

How the results depend on the processing

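The 3 members past 2-fold between muscles were 2 or 3 under every alternative. Of the other pathway genes, 11 in the report, 7 were past 2-fold after thinning to 1000 UMIs per cell and 6 with 5 CPM added. A limit of 5% mitochondrial UMIs, after which 1960 of 2171 quadriceps cells were FAP-like, made 8 quadriceps genes highest in FAP-like cells in place of 3, while the same limit on the classes as first named, added after the data were seen, gave 4 (in diaphragm it left 1 class of at least 20 cells and no comparison). Clustering each library on its own made 3 diaphragm genes in place of 6, and classes of at least 10 cells made 4. The genes past 2-fold between FBN1+ and LUM+ FAPs in both muscles, 2 in the report, were 1 with centring over both libraries and 4 without Tnmd-positive barcodes, where Cyp26b1 in diaphragm reversed to 0.70. Without Scrublet calls the count was 2, but of Adh1 and Aldh1a3 in place of Aldh1a3 and Cyp26b1. Aldh1a2 on this contrast in diaphragm (1.27 in the report) reversed to -0.30 with the mitochondrial limit, -0.62 without Scrublet calls and -0.83 without Tnmd-positive barcodes. Of the other values of single members, 160 moved by less than their counting interval and 68 by more. Beyond the stated construction of the alternatives, the cause was not tested. No paired analysis was possible because there is 1 library per muscle. The same lack of replicates means that no interval here covers differences between animals or preparations. Depth limits Crabp1, Rarb and, in diaphragm, Cyp26b1.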
